A study of Drosophila melanogaster with 4 samples.

Results

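The long transposon insertions of the Drosophila melanogaster genome were described here in embryonic muscle cells of a salm[340] mutant line and a WT line. They are the features of the deposited count files whose identifier does not begin with FBgn and whose length is at least 4000 bases. The rule, which uses no measured value, took 816 of the 23882 features counted, out of 5571 annotated insertions of any length. A further 867 insertions were 1 kb to under 4 kb long and 3888 were under 1 kb.

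The series was made to find targets of Salm, the product of spalt major and a zinc finger regulator of transcription, in developing muscle. Both groups were polyA RNA libraries of GFP-positive cells sorted from stage 11 embryos, laid over 3 h at 25 C and aged for 7 h: 2 libraries of homozygous salm[340] mutant embryos and 2 libraries of WT embryos. The submitters call the 2 libraries of a line technical replicates, so each p-value measures only the spread between libraries. Each line stands for its group once, so the allele and any other difference between the 2 lines, such as which insertions each carries, cannot be told apart. What drives the GFP, and what lesion the salm[340] allele carries, are not given in the sources used here.

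Transposons are DNA segments that copy or move themselves within a genome. LTR retrotransposons are transcribed from one long terminal repeat to the other into a nearly full-length RNA that is reverse transcribed; the Drosophila ones form the gypsy, copia and BEL-Pao groups, and several gypsy-group families carry an envelope gene and are classed as insect endogenous retroviruses. Non-LTR (LINE-like) elements such as I, Doc, F and jockey are transcribed from an internal promoter. A long insertion is usually a complete or nearly complete copy. In flies, transposon RNA is held down by small RNAs, by Piwi-interacting RNAs in the gonad and by small interfering RNAs in other tissues, and by heterochromatin. Families such as 412 and roo are known to be transcribed in the embryonic mesoderm, the tissue that gives rise to muscle. No insertion sequence is printed, since no genome sequence was used here.

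A fragment that matched several places was counted at each of them, so copies of one family share fragments, and the count of a copy measures how much RNA matches it, not how much came from that locus. For the same reason a copy present in the reference can receive counts in a line that lacks it. Levels are given as CPM, counts per 1000000 counts in nuclear genes of the same library. Nuclear gene counts were 5931336 and 5772355 in the salm[340] libraries and 16444679 and 14519537 in the WT libraries, of total counts of 16100019 and 16730331 in salm[340] and 23235569 and 21858256 in WT. The rest was largely mitochondrial: mitochondrial genes took 60.9% and 63.2% of gene counts in salm[340] and 24.8% and 29.3% in WT. Nuclear rRNA features took 2.37% and 2.23% of nuclear gene counts in salm[340] and 0.658% and 0.501% in WT. The median nuclear gene had a log2 fold change (salm[340] minus WT) of -0.26 on this scale, -0.03 with TMM, and -1.2 when mitochondrial counts were part of the library size. With mitochondrial counts in the library size 32 of the 237 members called higher turned below 0. None of the 145 called lower turned above 0, but that scaling moves values down and so could not turn them. RNA of salm itself was higher in the libraries labelled salm[340], at 161 and 172 CPM, against 53.0 and 51.6 CPM in WT, which does not check the labels while the lesion is unknown. The muscle transcription factor Mef2 had 452 and 511 CPM in salm[340] and 524 and 544 CPM in WT and was not called different, so the sorted cells of both lines carried this muscle marker. Summed over 15 myoblast and mesoderm markers the level was 4591 and 5011 CPM in salm[340] and 3779 and 3894 CPM in WT, with 5 markers called higher and 2 lower. Per 1000000 counts of all genes, mitochondrial ones included, this sum turned to 1794 and 1845 in salm[340] and 2842 and 2754 in WT. Markers of other cell types are set beside all genes tested, of which 5.84% were called higher and 20.6% lower. Their levels also carry the median shift of nuclear genes given above. Median log2 fold changes were -0.33 for neural markers, near that shift, and -0.43 for trachea, -0.52 for epidermis and -0.59 for hemocyte markers. They were -0.75 for fat body, 0.23 for somatic gonad and 0.46 for yolk markers, from few genes each. The 9 hemocyte markers summed to 222 and 247 CPM in salm[340] and 355 and 363 CPM in WT (4 of 7 tested lower, 2 higher), and the 8 neural markers to 334 and 375 CPM in salm[340] and 415 and 436 CPM in WT (2 lower). The 3 fat body markers found summed to 55.0 and 77.3 CPM in salm[340] and 94.7 and 99.4 CPM in WT (1 lower), and the 3 trachea markers to 90.03 and 88.9 CPM in salm[340] and 113 and 122 CPM in WT (1 lower). The 5 epidermis markers (3 lower, 1 higher) summed to 1050 and 1122 CPM in salm[340] and 1025 and 1047 CPM in WT. The 5 somatic gonad markers summed to 250 and 262 CPM in salm[340] and 208 and 217 CPM in WT (1 higher). The higher one, zfh1, is also on the mesoderm list and made up most of that sum. The 3 yolk markers summed to 60.4 and 58.9 CPM in salm[340] and 52.4 and 45.4 CPM in WT (none of 2 tested called). Their part in the results on insertions was not tested. Fewer cells of a type and less RNA per cell cannot be told apart in such sorted pools.

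Long insertions had larger summed counts relative to nuclear genes in salm[340]. The sums came to 14.6% and 17.3% of nuclear gene counts in the salm[340] libraries and 7.51% and 8.25% in the WT libraries. A fragment enters these sums once for each copy it matches, nested copies included, so they are not amounts of RNA. Both mutant libraries lay above both WT libraries. As a share of all counts, mitochondrial ones included, the lines overlapped, at 5.38% and 5.97% in salm[340] and 5.32% and 5.48% in WT. Most of these counts came from 2 families of LTR retrotransposons. The 27 long copies of 412, a gypsy-group element, held 7.03% and 8.50% of nuclear gene counts in salm[340] and 3.72% and 4.18% in WT. The 112 long copies of roo, a BEL-Pao element, held 4.78% and 5.52% in salm[340] and 1.34% and 1.42% in WT. The 677 other members together held 2.81% and 3.28% in salm[340] and 2.46% and 2.66% in WT. As the stacked plot of summed counts shows, roo took 32.7% and 31.9% of the members' counts in salm[340] and 17.8% and 17.2% in WT, while 412 took between 48.1% and 50.6% in each of the 4 libraries.

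**Figure D1:**
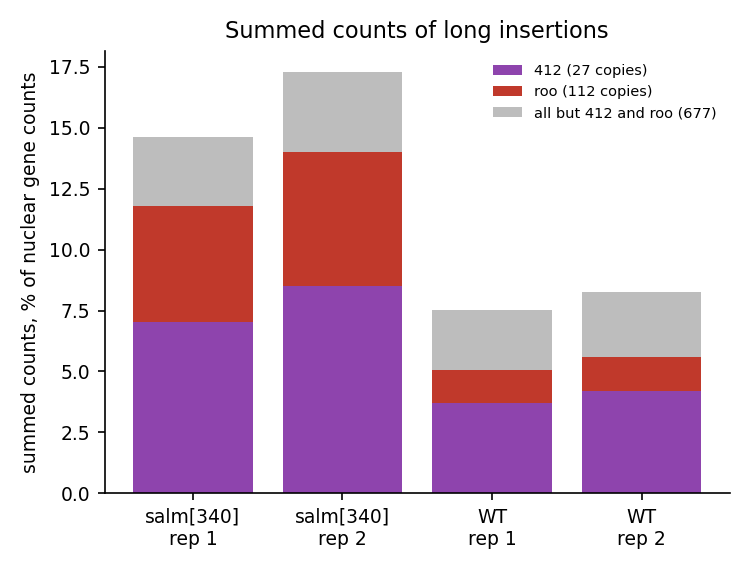
Summed counts of the 816 long insertions as a percentage of nuclear gene counts, 1 bar per library, split into 412, roo and all other families. The salm[340] bars reach 14.6% and 17.3% and the WT bars 7.51% and 8.25%, and most of the gap lies in 412 and roo. A fragment is counted at each copy it matches, so the bars are not amounts of RNA.

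Of the 816 members, 693 passed the filter on low counts and were tested, and 123 were not, of which 8 had no count in any library. The test was edgeR's quasi-likelihood test over all 11986 features that passed, with calls at a Benjamini-Hochberg adjusted p under 0.05 over all of them. Among the tested members 237 (34.2%) were called higher in salm[340], where 7.63% of all features tested were, and 145 (20.9%) were called lower, where 20.2% of all features were. A further 311 were not called. In either direction 27.8% of all features were called, and among genes alone 5.84% were higher, 20.6% lower and 26.4% either. The median log2 fold change of the tested members was 0.26, beside -0.25 over all features tested. Among shorter insertions 8.97% of the 290 tested insertions of 1 kb to under 4 kb and 9.70% of the 237 tested insertions under 1 kb were called higher, and 13.8% and 11.4% lower. The members' higher share rests in part on family sizes, since copies of a family repeat each other. Without roo it was 22.0% of 581, and without roo and 412 it was 18.2% of 554, with 26.2% lower. With mitochondrial counts in the library size the direction of the split turned, with 176 higher and 330 lower. With TMM 249 were higher and 102 lower. The count of lower members fell to 85 without WT replicate 1 and 74 without WT replicate 2, fits in which the single WT library is assumed to vary like the mutant ones.

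By class of element the counts of calls were as follows. Of 141 tested BEL-Pao copies 111 were higher and 16 lower, with a median log2 fold change of 1.89. Of these, roo alone gave 109 of the higher calls and none of the lower ones, and the 29 other tested BEL-Pao copies were 2 higher and 16 lower, with a median of -0.62. Of 39 copia-group copies 37 were lower and 1 higher, with a median of -1.08. The 318 gypsy-group copies split into 110 higher, 64 lower and 144 not called. Of 155 LINE-like copies 9 were higher, 23 lower and 123 not called. By arm, the higher share ran between 29.9% on 2R and 39.7% on X for the 5 large arms, and on chromosome 4 it was 1 of 14. Members inside a gene but clear of its exons had 116 of 327 higher and 74 lower, and members outside genes 89 of 302 higher and 59 lower. Members that overlap a gene exon, and so can carry counts of that gene, had 32 of 64 higher and 12 lower.

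In several families nearly every tested copy was called in one direction. Copies of a family share fragments, so such agreement is in part built into the counting, and the copies are not replicates. Among the 21 families with at least 10 long insertions, 412 was higher in 27 of 27 tested copies, with log2 fold changes between 0.84 and 1.04, and 17.6 in 17 of 17, between 1.73 and 3.56. The roo family was higher in 109 of 112 copies and blood in 26 of 27. In the other direction, copia was lower in 32 of 32 copies, between -1.35 and -0.84, and Tirant in 18 of 18, with a median of -2.74. Lower in nearly every tested copy were also mdg3 (10 of 11) and diver (9 of 10). HMS-Beagle was higher in 11 of 12 copies with a median of 0.47, a direction that turned with mitochondrial counts in the library size (median -0.47). With that library size 412 kept a median of 0.05 and none of its copies was called. The lower calls of smaller size also depended on the scaling: flea was lower in 11 of 15 copies and the I element in 9 of 11, but with TMM these counts were 4 and 3. With TMM mdg3 was lower in 6 of 11 copies and diver in 4 of 10.

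Other large families gave few calls. None of the 20 long copies of opus was called, with log2 fold changes between -0.57 and -0.03. Of 49 Doc copies 45 were not called and of 44 F copies 43, and the medians lay on opposite sides of 0, at -0.46 for Doc and 0.46 for F. The median of F turned to -0.48 with mitochondrial counts in the library size. Of 34 copies of 297, 6 were lower and 2 higher. The smaller families Transpac, Burdock and Juan had no call in 9, 8 and 7 tested copies. These misses do not show that the families were alike in the lines. Mean levels of opus copies that overlap no other feature were 7.61 to 17.8 CPM in salm[340] and 9.15 to 21.0 CPM in WT.

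**Figure D2:**
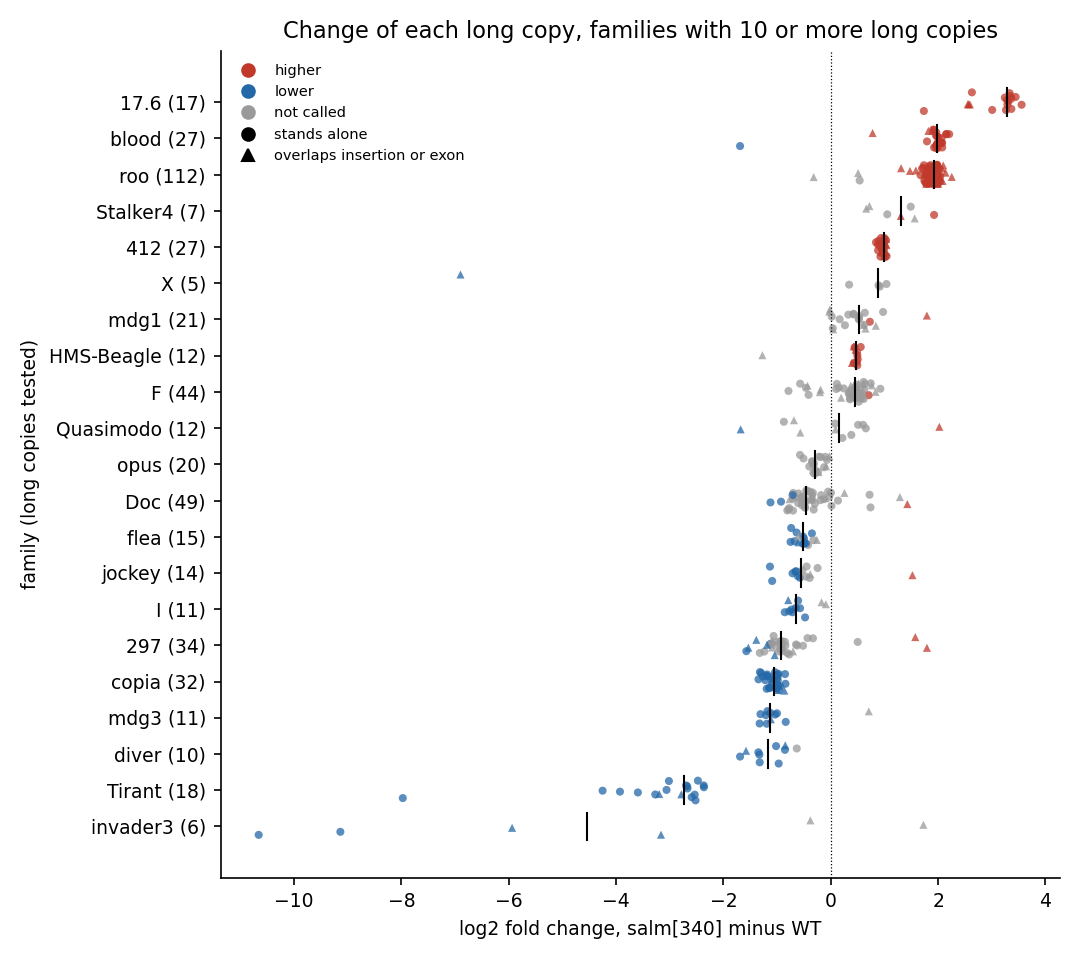
Log2 fold change (salm[340] minus WT) of each tested long copy in the 21 families with at least 10 long insertions, families ordered by their median (black bar). Circles are copies that overlap no other insertion and no gene exon, triangles overlap one, and colour gives the edgeR call; 17.6 copies lie between 1.73 and 3.56 and copia copies between -1.35 and -0.84.

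Insertions often lie inside one another, and then carry each other's counts. Of the 816 members 204 overlapped another annotated insertion and 73 overlapped a gene exon. The values that follow therefore come, wherever a family has one, from a copy that stands alone, meaning that it overlaps neither. This choice was made after the nested counts had been seen. Each family was first counted once, by its tested copy with the highest mean level: 29 of 78 families were higher and 15 lower. By the highest copy that stands alone, which 63 families have, 18 were higher and 12 lower. Most copies named below for the size of their change had to show no overlap between the lines, so that trait is no added evidence. It was also common, at 592 of the 693 tested members and 8067 of the 11986 features tested.

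Among families with at least 10 CPM, the largest rise was that of gypsy, an endogenous retrovirus of flies. The copy gypsy{}RR48391 (BDGP6, 3R:2952263-2959723, minus strand, inside Pzl and clear of its exons) had 193 and 227 CPM in salm[340] and 3.83 and 4.41 CPM in WT. The lines did not overlap. On the log2 scale this copy was higher by 5.67 ± 0.15 (SE), with an edgeR adjusted p of 3.8e-08. Of the 6 long gypsy copies 4 were higher. The copy in l(3)80Fg, gypsy{}RR48375, had 59.2 and 62.4 CPM in salm[340] and 6.08 and 7.37 CPM in WT. On 3L outside genes, gypsy{}RR50358 had 21.1 and 20.3 CPM in salm[340] and 3.71 and 3.37 CPM in WT. The 2 copies not called had log2 fold changes of 0.80 (gypsy{}2813) and -2.24 (gypsy{}4151, inside AGO3). The second was called lower without salm[340] replicate 2 (edgeR adjusted p = 0.0096).

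The 17.6 element, also of the gypsy group, came next among well-covered families. Its copy 17.6{}RR48369 (2R:2110563-2118063, plus strand, inside CG17684) had 641 and 817 CPM in salm[340] and 66.0 and 78.9 CPM in WT, higher by 3.33 ± 0.14 on the log2 scale (SE), with an edgeR adjusted p of 5.5e-07. No WT library came near a mutant one. The blood element copy blood{}356 (2L:12933905-12941314, minus strand, outside genes) had 244 and 277 CPM in salm[340] and 62.5 and 69.4 CPM in WT, higher by 1.98 ± 0.11 on the log2 scale (SE), with an edgeR adjusted p of 9.9e-07. A single blood copy went the other way: blood{}RR48405, inside Myo81F, had 5.06 and 8.32 CPM in salm[340] and 16.97 and 26.2 CPM in WT and was lower by edgeR (adjusted p = 0.0040). It stands alone, and the other 26 tested copies of the family were higher.

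The families with the largest summed counts over their long copies were 412 and roo. A fragment is counted at each copy it matches, so these sums grow with the number of copies. The copy roo{}1708 (3L:6405714-6432119, plus strand, 26406 bases, inside CG42747) had 2698 and 3148 CPM in salm[340] and 733 and 794 CPM in WT, higher by 1.94 ± 0.10 on the log2 scale (SE), with an edgeR adjusted p of 7.8e-07. The copy 412{}971 (3L:9533808-9541310, plus strand, outside genes) had 5007 and 5980 CPM in salm[340] and 2610 and 2915 CPM in WT, higher by 0.99 ± 0.10 on the log2 scale (SE), with an edgeR adjusted p of 8.1e-05. Per kb of its length it held 732 CPM in salm[340] and 368 CPM in WT, while roo{}1708 held 111 CPM per kb in salm[340] and 28.9 CPM per kb in WT. The span of roo{}1708 is far longer than the median long roo copy, of 9092 bases. Whether it is a single element was not tested. Its level was also far above the median roo copy that stands alone, at 404 CPM in salm[340]. These per kb values therefore do not rank the roo and 412 families. The lines did not overlap for 412{}971 or for roo{}1708. With mitochondrial counts in the library size the 412 copy had a log2 fold change of 0.05 and was not called (edgeR adjusted p = 0.67). The 3 roo copies that were not called had log2 fold changes of -0.32 (roo{}1668), 0.51 (roo{}850, overlapping an exon of grh) and 0.54 (roo{}RR48389), all at far lower levels, between 3.64 and 33.3 CPM in the 4 libraries. By edgeR's adjusted p, roo{}850 was called higher without salm[340] replicate 2 (0.047), and roo{}RR48389 without salm[340] replicate 1 (0.0038) and with TMM (0.021).

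Several less abundant families rose as well. The DNA transposon HB, with 1 tested long copy inside heph, had 308 and 344 CPM in salm[340] and 98.8 and 101 CPM in WT (log2 fold change 1.71 ± 0.10, SE; edgeR adjusted p = 1.1e-06). This copy spans 9406 bases, and whether it is a single element was not tested. HMS-Beagle2{}1232 had 13.7 and 15.6 CPM in salm[340] and 3.10 and 2.07 CPM in WT. The LINE-like copy Doc2{}4272 had 28.2 and 22.5 CPM in salm[340] and 5.11 and 8.54 CPM in WT. In each of these the lines stayed apart, and edgeR's adjusted p was 6.5e-04 for HMS-Beagle2{}1232 and 0.0012 for Doc2{}4272. Tabor{}RR48373 had 59.2 and 30.5 CPM in salm[340] and 13.0 and 14.5 CPM in WT, with a wide spread between the mutant libraries. Idefix and ZAM are gypsy-group retroviruses known, like gypsy, as targets of the flamenco locus in the follicle cells of the ovary. Families were not sorted by this trait, and other gypsy-group families, among them Tirant, gtwin and springer, fell, as given below. Idefix{}RR48398 had 13.3 and 12.6 CPM in salm[340] and 4.26 and 3.93 CPM in WT, higher by edgeR, although with mitochondrial counts in the library size it was not called (adjusted p = 0.060). ZAM{}RR48383 had 4.21 and 2.95 CPM in salm[340] and 0.061 and 0.482 CPM in WT, a rise that rests on few counts (edgeR adjusted p = 0.015) and was not called without WT replicate 1 (0.24) or WT replicate 2 (0.052).

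Smaller rises were found for R1 and R1A1, LINE-like elements known for inserting into rRNA genes. R1{}RR48395 had 49.7 and 58.6 CPM in salm[340] and 36.4 and 31.5 CPM in WT, and R1A1{}1124 had 35.4 and 35.0 CPM in salm[340] and 25.9 and 19.6 CPM in WT. The groups did not overlap, but the directions turned with mitochondrial counts in the library size (log2 fold changes of -0.28 and -0.32). R1{}RR48395 was not called without WT replicate 2 (edgeR adjusted p = 0.14), and R1A1{}1124 was not called without WT replicate 1 (0.052) or WT replicate 2 (0.38). Nuclear rRNA was also higher in salm[340], as given above, and its part in these values was not tested.

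**Figure D3:**
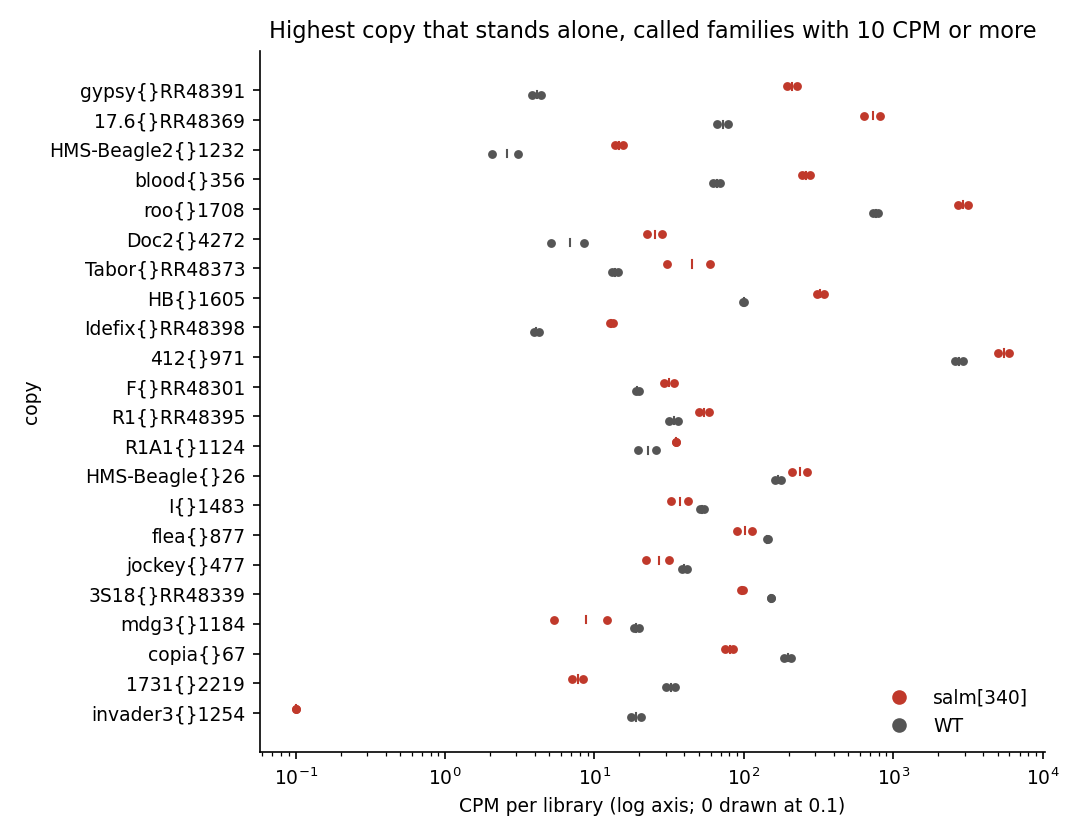
CPM in each library (log axis, a value of 0 drawn at 0.1) of the highest copy that stands alone, for called families with at least 10 CPM in one line; red points are salm[340], grey points WT, and short bars the means. At the top gypsy{}RR48391 has 193 and 227 CPM in salm[340] against 3.83 and 4.41 CPM in WT, and at the bottom invader3{}1254 has 0 in both salm[340] libraries against 20.5 and 17.5 CPM in WT.

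Among the families that fell, copia is the namesake of its group. The copy copia{}67 (X:5927149-5932295, minus strand, inside CG3726) had 75.2 and 85.2 CPM in salm[340] and 186 and 208 CPM in WT, a log2 difference of -1.30 ± 0.11 (SE) with an edgeR adjusted p of 2.4e-05. The 29 copia copies that stand alone were all lower. Of the other copia-group families, 1731 was lower in 5 of 5 tested copies, and Dm88 had 1 of 2 tested copies higher and none lower. The higher one, Dm88{}1690, shared 84.2% of its counts with invader1{}1337 inside it. The Dm88 copy that stands alone, Dm88{}RR43222, was not called (log2 fold change 0.39). The copy 1731{}2219 had 8.43 and 7.10 CPM in salm[340] and 29.98 and 34.8 CPM in WT. For copia{}67 and 1731{}2219 the 2 lines were fully apart.

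In gypsy-group families the falls reached the detection limit. Tirant, an endogenous retrovirus, had its highest copy, Tirant{}833, at 2.02 and 0.520 CPM in salm[340] and 8.03 and 7.51 CPM in WT. The 19 long Tirant copies summed to 65 and 41 counts in salm[340] and 1137 and 1008 counts in WT. Springer was lower in 7 of 7 tested copies, and its copy springer{}300 had 0.843 and 2.25 CPM in salm[340] and 7.84 and 7.03 CPM in WT. The gtwin copy that stands alone, gtwin{}19, had 1 count in each salm[340] library and 89 and 76 counts in the WT libraries. For these 3 copies no mutant library reached a WT library, and edgeR's adjusted p was 0.0058 for Tirant{}833, 0.0074 for springer{}300 and 8.6e-04 for gtwin{}19. The call of springer{}300 was lost without WT replicate 1 (adjusted p = 0.066).

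Neighbouring insertions on 3R had almost no counts in salm[340]. The copy invader3{}1254 (3R:7707820-7713635, plus strand, outside genes) had no count in either salm[340] library and 337 and 254 counts in the WT libraries. Set against a floor of 3 counts over both mutant libraries it was at least 74.5-fold lower in salm[340]. Directly beside it, invader3{}1714 (3R:7694632-7707819), which overlaps an exon of Nlg1, had 2 and 4 counts in salm[340] and 524 and 471 counts in WT. Inside that copy lies gypsy3{}1250, with 2 and 4 counts in salm[340] and 91 and 83 in WT. Of the counts of gypsy3{}1250, 89.4% were shared with springer{}1251 inside it. Springer was lower in 7 of 7 tested copies, and invader3 in 4 of 6. These counts include the copies of this stretch, and copies elsewhere share fragments with them. Whether the falls are particular to this stretch was therefore not tested. Further along the arm, Stalker2{}1255 (3R:7729521-7737401) was not called, at 775 and 941 CPM in salm[340] and 933 and 1055 CPM in WT, which overlap, although it was called lower without salm[340] replicate 2 (edgeR adjusted p = 5.4e-04). Tested members without a count in salm[340] passed the filter on low counts only through WT, and they are listed here for that absence. Nuclear genes were also read less deeply in salm[340]. The fold bounds and calls of these members therefore describe them and are no separate test of a fall. Apart from invader3{}1254, the tested members without a count in salm[340] lie on 2L, 2R, 3L and X. Against the same floor they were at least 25.8-fold (invader3{}RR48363), 16.8-fold (gypsy8{}5168), 11.5-fold (Tirant{}328), 7.56-fold (HeT-A{}6255), 5.54-fold (X{}1606) and 5.54-fold (3S18{}RR48390) lower. Of these, Tirant{}328 and HeT-A{}6255 were not called without WT replicate 1 (edgeR adjusted p = 0.060 and 0.11), and X{}1606 and 3S18{}RR48390 were not called without WT replicate 2 (0.19 for each).

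Lower at moderate size were mdg3, 3S18, flea, the I element and jockey. The 3S18{}RR48339 copy, of the BEL-Pao group, had 95.1 and 99.4 CPM in salm[340] and 152 and 153 CPM in WT (log2 fold change -0.65 ± 0.10, SE; edgeR adjusted p = 0.0011). The mdg3{}1184 copy had 5.40 and 12.1 CPM in salm[340] and 18.4 and 19.8 CPM in WT. The flea{}877 copy had 90.03 and 113 CPM in salm[340] and 144 and 142 CPM in WT. Neither line overlapped the other in these 3. The I element, whose mobilisation in crosses is known as I-R hybrid dysgenesis, had at I{}1483, inside pan, 32.7 and 42.4 CPM in salm[340] and 50.6 and 54.1 CPM in WT. The jockey{}477 copy had 22.3 and 31.5 CPM in salm[340] and 38.5 and 41.6 CPM in WT. Apart from 3S18, these calls were lost with TMM, where edgeR adjusted p was 0.083 for mdg3{}1184, 0.14 for flea{}877, 0.29 for I{}1483 and 0.21 for jockey{}477. The calls were also lost without WT replicate 2 (adjusted p = 0.078 for mdg3{}1184, 0.077 for flea{}877, 0.32 for I{}1483 and 0.27 for jockey{}477). Without WT replicate 1 flea{}877 (0.091), I{}1483 (0.18) and jockey{}477 (0.14) were not called, and without salm[340] replicate 1 neither I{}1483 (0.073) nor jockey{}477 (0.073) was.

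**Figure D4:**
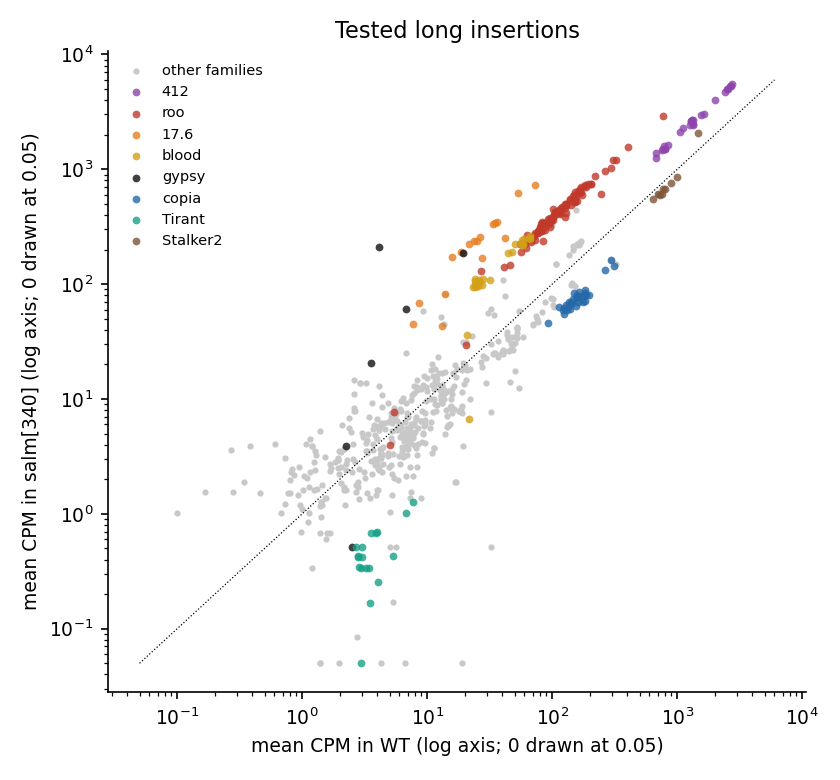
Mean CPM of each tested long insertion in WT (x axis) and salm[340] (y axis), both on log axes with 0 drawn at 0.05; the dotted line marks equal levels. Copies of 17.6, roo, blood and 412 lie above the line, apart from 1 roo and 1 blood copy, and copia and Tirant copies below it; Stalker2 lies near it at high levels.

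Nested copies of different families shared counts. Of the 44 called family representatives, 19 held an insertion of another family inside them, and in 14 of these the inner insertion carried at least 75% of the counts. The clearest case is on 2R, where gypsy{}615 (2R:5049217-5056682, minus strand) lies inside diver2{}1632, which lies inside accord2{}1996. The inner gypsy copy and diver2{}1632 had the same counts, 1057 and 1138 in salm[340] and 368 and 240 in WT, and accord2{}1996 had 1067 and 1138 in salm[340] and 376 and 244 in WT. Each was therefore higher by about the same amount, with a log2 fold change of 3.27 for gypsy{}615 and 3.24 for accord2{}1996. The accord2 copy that stands alone, accord2{}625, had 1.69 and 1.21 CPM in salm[340] and 4.80 and 2.96 CPM in WT, and was not called (log2 fold change -1.42; edgeR adjusted p = 0.083). It was called lower without salm[340] replicate 1 (adjusted p = 0.036).

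The same was seen with roo, blood, 17.6 and copia as the inner element. On X, mdg1{}1636 shared 99.9% of its counts with roo{}1716, a span of 30008 bases inside it, which in turn holds 297{}1646 (99.5% of the counts of mdg1{}1636) with blood{}218 inside that (45.5%). It had a log2 fold change of 1.79, while mdg1{}1678, standing alone, had 0.33 and was not called. That lone copy was called higher without salm[340] replicate 1 (0.67; edgeR adjusted p = 0.013) and turned to -0.12 without salm[340] replicate 2. On 2R, jockey{}1630 shared 84.7% of its counts with roo{}1769 and was higher (1.52), although jockey{}477 was lower (-0.58). On 2L, Doc{}1674 shared 79.5% with blood{}409 and was higher (1.43), and Doc{}1053 was not called (-0.50), although it was called lower without salm[340] replicate 1 (edgeR adjusted p = 0.048). On 3L, Quasimodo{}3987 shared 76.4% with 17.6{}1063. With copia inside, mdg3{}1683 shared 96.4% of its counts with copia{}466, yet here the outer copy (-1.12) and mdg3{}1184 (-1.13) went the same way.

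**Figure D5:**
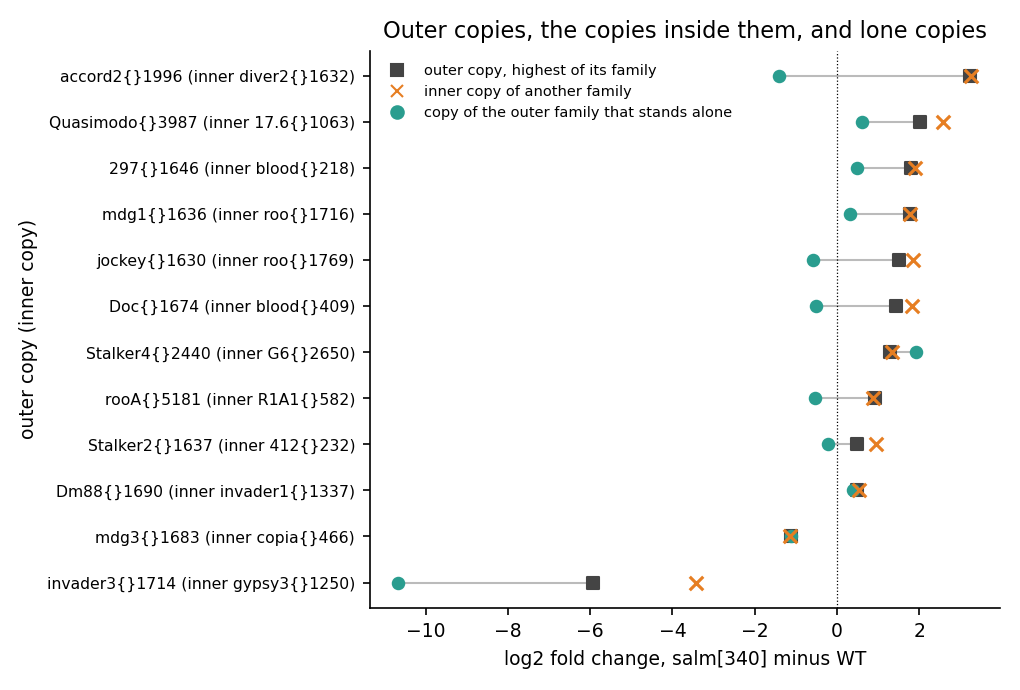
Log2 fold change (salm[340] minus WT) of 12 called outer copies that hold an insertion of another family (squares), of the inner copy (crosses) and of a copy of the outer family that stands alone (circles). For accord2 the outer copy is at 3.24 and the lone copy at -1.42; for mdg3 both lie near -1.1.

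Some long insertions lie in loci known from transposon silencing. The flamenco locus (lncRNA:flam, X:21631891-21790731) is a piRNA cluster, a stretch of transposon remnants whose transcript is cut into piRNAs, and it holds 14 of the members. Of its 13 tested members 5 were higher (38.5%) and 1 lower (7.69%), and nested ones among them share counts. Among all tested members 34.2% were higher and 20.9% lower, and among all features tested 7.63% and 20.2%. The higher share in the locus was thus near that of all members. The higher ones were Stalker2{}1637, 412{}232 inside it, Stalker4{}2440 with G6{}2650 inside it, and blood{}2438. The copy blood{}2438 had 33.4 and 38.6 CPM in salm[340] and 20.2 and 21.8 CPM in WT, and a log2 fold change of 0.78, beside a median of 1.98 over the blood copies. It turned to -0.165 with mitochondrial counts in the library size and was not called without WT replicate 1 (edgeR adjusted p = 0.10) or WT replicate 2 (0.052). Stalker4{}2440 and G6{}2650 were not called without WT replicate 1 (0.060 and 0.084), WT replicate 2 (0.16 and 0.19) or salm[340] replicate 1 (0.26 and 0.20) by edgeR's adjusted p. The lower one, springer{}2141, had 0.674 and 1.39 CPM in salm[340] and 4.38 and 5.79 CPM in WT, and was not called without WT replicate 1 (edgeR adjusted p = 0.088) or WT replicate 2 (0.26). Stalker2{}1637 shared 58.9% of its counts with 412{}232, and its direction turned with mitochondrial counts in the library size (-0.45). It was not called without WT replicate 1 (edgeR adjusted p = 0.093). The locus's own RNA had 297 and 390 CPM in salm[340] and 207 and 258 CPM in WT (log2 fold change 0.57 ± 0.14, SE; edgeR adjusted p = 0.016), a direction that also turned with that library size (-0.38) and a call lost without WT replicate 1 (adjusted p = 0.14). Exons of the locus overlap members such as 412{}232, so its count includes theirs. The gene AGO3, a Piwi-family Argonaute of the germ line, holds 9 members, of which 5 were tested and none called, and AGO3 itself had 1 to 14 counts per library and was not tested.

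Genes of transposon silencing were called at shares near those of all genes. Of 48 listed genes of the piRNA pathway, the siRNA pathway, heterochromatin and insulators, 47 were matched and 42 tested; 2 were higher (4.76%, beside 5.84% of all genes tested) and 7 lower (16.7%, beside 20.6%), with a median log2 fold change of -0.31, beside -0.25 over all features. The higher ones were the flamenco RNA and vas, a germ-cell RNA helicase, at 10.5 and 10.4 CPM in salm[340] and 3.41 and 5.99 CPM in WT (edgeR adjusted p = 0.037). None of the 4 siRNA genes, among them AGO2 and Dcr-2, was called. The lower ones with the smallest adjusted p were daed and papi, piRNA factors of the mitochondrial surface, and wde, a cofactor of heterochromatic histone methylation. For daed the levels were 4.72 and 4.33 CPM in salm[340] and 11.8 and 10.7 CPM in WT, a log2 difference of -1.31 ± 0.30 (SE) with an edgeR adjusted p of 0.010. For papi they were 19.7 and 18.5 CPM in salm[340] and 29.6 and 33.0 CPM in WT, and for wde 48.2 and 60.1 CPM in salm[340] and 78.2 and 80.2 CPM in WT. None of the 3 was called without WT replicate 1 (edgeR adjusted p = 0.14 for daed, 0.088 for papi and 0.079 for wde) or without WT replicate 2 (0.073 for daed, 0.22 for papi and 0.11 for wde), and with TMM papi (0.081) and wde (0.11) were not called. With TMM the split was 4 higher and 1 lower. Without WT replicate 1 it was 0 and 0, and without WT replicate 2 it was 2 and 0. Of 11 germ cell markers 9 were tested, 1 was higher (vas) and 3 lower (gcl, CycB and bam). The germ cell markers summed to 178.0 and 163.0 CPM in salm[340] and 205.6 and 204.7 CPM in WT, and osk was at 0 in the 4 libraries. Most of this sum came from CycB, gcl and ovo, so it says little about vas or the other low markers.

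Levels were low on both sides of the length limit. The shortest members, invader1{}677 (4027 bases), F{}4764 (4041) and gypsy{}2813 (4089), had mean levels of 0.677, 5.39 and 3.93 CPM in salm[340] and 1.57, 4.13 and 2.25 CPM in WT. The longest insertions under the limit, INE-1{}4004 (3997 bases), Rt1b{}2732 (3925) and Cr1a{}1563 (3897), had 0, 0.169 and 0.260 CPM in salm[340] and 0.786, 0 and 1.92 CPM in WT.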

How the data were processed

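The data are polyA RNA libraries of sorted GFP-positive embryonic cells, 2 of salm[340] and 2 of WT, grouped by their titles. Processing included cutadapt 2.4, STAR 2.5.4b and build BDGP6, as listed in the submitters' processing notes. Fragments were counted by the authors with featureCounts 2.0.1 on Ensembl release 104 (BDGP6.32), per the file headers, and the deposited files hold raw counts. Per the file headers, multi-mapped fragments and fragments over several features were counted for each, without strand, with at least 10 bases of overlap and both mates on one chromosome. Names and positions came from Ensembl release 115 (BDGP6.54), where all 816 members matched by identifier and position. A table of the whole series was not used.

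From the counts, edgeR 4.0.16 in R 4.3.3 (filterByExpr, glmQLFit, glmQLFTest) was fitted to all features, genes and insertions together, with nuclear gene counts as library size and no replicate block. Log2 fold changes are salm[340] minus WT; standard errors were taken from the log2 fold change and the square root of F. Calls need a Benjamini-Hochberg adjusted p under 0.05 over 11986 features. Element classes were assigned by family name from general knowledge. The 2 libraries of a line differed by more than counting noise, with a chi-square per degree of freedom of 3.86 in salm[340] and 3.07 in WT over members.

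Named were up to 12 families per direction by the size of the change of their highest copy, with 10 CPM or more in one line and no overlap between lines; the 12 families highest per kb; families with at least 10 members; 8 copies farthest from their family's median; the members next to the length limit; and the 6 silencing genes with the smallest adjusted p. Copies that stand alone, gypsy copies, flamenco and AGO3 copies, roo and blood exceptions and further low-count copies were named after their values were seen. The members, lists and tests were chosen with earlier results of these data known.

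On simulated counts for salm[340] against WT over 11684 features, 61 of 95 features with a log2 change of 1 were recovered (64.2%) and 78 of 104 with a log2 change of 2 (75.0%), with 2.80% false among 143 calls. Alternatives were nuclear gene counts without rRNA, TMM, DESeq2 size factors, all gene counts, other filters, robust estimation, DESeq2 1.42.0, a replicate block, each library left out, and other choices of the copy that stands for a family.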

Additional observations from a re-analysis of the deposited data

How the results depend on the processing

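For long insertions, counts of higher and lower members in salm[340] were 237 and 145. With all gene counts as library size the lower count was 330. Leaving out 1 library at a time gave 74 to 180 lower members, with the low end from leaving out a WT library, and kept the higher count within 1.5 times. Other alternatives kept both counts within 1.5 times, among them DESeq2 (232 and 125) and TMM (249 and 102, where the split moved to 70.9% higher of those called, beside 62.0%; over all features it moved to 58.5%, beside 27.5%). The members that stand alone, an alternative chosen after seeing the data, gave 167 and 111. Families were 29 higher and 15 lower, 17 and 35 with all gene counts, 18 and 12 by copies that stand alone, 29 and 17 by summed counts, 25 and 12 by the longest copy, and 21 to 31 and 10 to 19 without 1 library. Silencing genes were 2 higher and 7 lower, 4 and 1 with TMM or DESeq2 size factors, 0 and 31 with all gene counts, 1 and 5 with DESeq2, and 0 to 5 and 0 to 16 without 1 library. With all gene counts the log2 fold change turned to -0.453 for Stalker2{}1637, -0.457 for HMS-Beagle{}26, -0.24 for F{}RR48301, -0.277 for R1{}RR48395, -0.321 for R1A1{}1124 and -0.378 for the flamenco RNA. With TMM and with DESeq2 size factors it turned to 0.0352 and 0.0356 for gypsy12{}2932 and to 0.034 and 0.0344 for F{}656, neither called in the main setting. Library size sets a common shift of all values; the cause of the other changes was not tested.

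The replicate numbers did not pair the libraries: deviations of same-numbered libraries correlated at 0.0279, and the replicate block gave 236 and 152 members, 28 and 17 families and 3 and 8 silencing genes. Depth limits the low copies: 123 members were not tested, the highest with 51 counts over the 4 libraries, and nuclear genes were read less deeply in salm[340]. Copies that share fragments are not separate measurements.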
